A study of Mus musculus with 24 samples.

Results

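The islet hormone and endocrine granule genes are 10 genes taken by name from the 36806 in the expression table. They are the hormone genes Ins1, Ins2, Gcg, Sst, Ppy and Iapp, the hormone-cutting enzymes Pcsk1 and Pcsk2, and the granule proteins Scg3 and Chga. Polyadenylated RNA of whole pancreas was sequenced from C57BL mice with both copies of Nr5a2 intact (+/+, called WT) or with 1 intact copy (+/-, called HET). Nr5a2 encodes a nuclear receptor best known in the pancreas for its part in acinar cells, which secrete digestive enzymes. Mice of each genotype received saline, or 7 hourly intraperitoneal injections of 50 µg/kg caerulein, a cholecystokinin analog that causes a mild acute pancreatitis, and tissue was taken 8, 24 or 48 h after injections began. This gave 8 groups of 3 animals and 24 libraries. The genotype labels name no allele design, and the labels used here state neither age nor sex.

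Islets are small endocrine cell clusters scattered through the exocrine pancreas. Beta cells make insulin and amylin, alpha cells glucagon, delta cells somatostatin and PP cells pancreatic polypeptide. Each hormone is made as a precursor, sorted into dense-core granules with granins such as Chga and Scg3, and cut there by the prohormone convertases Pcsk1 and Pcsk2. Whole-pancreas RNA comes mostly from acinar cells, so these transcripts report on a minor cell population. In such bulk RNA, fewer islet cells in the piece sampled and less hormone RNA per cell cannot be told apart.

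The unit is FPKM as deposited, a level corrected for transcript length and library size, and no gene of the 10 was at 0 in any library. The files give no read counts, so the depth behind a value is unknown and precision rests on the 3 animals of a group. Differences below are of mean log2(FPKM + 1) with limma's standard error and its p adjusted over all genes tested, and a gene is called past an adjusted p of 0.05. On that scale the change of a gene near 1 FPKM is understated.

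Several features of the libraries stand beside the results. Nr5a2 itself ranged from 9.26 to 12.6 FPKM in WT saline libraries and from 8.01 to 9.09 in HET saline libraries. Its genotype difference was not called in any single condition, and over the 4 conditions it was -0.29 ± 0.09 (SE; limma, adjusted p = 0.03675). Libraries of saline and 24 h animals were made with an earlier kit guide and those of 8 h and 48 h animals with a later one, so a difference of 8 h or 48 h from saline cannot be told apart from the guide; the third WT saline library is in neither list. Up to 14 of 33 digestive enzyme genes were listed at 0 in all 3 libraries of a group, so summed enzyme values are incomplete. HET 48 h library 3 stood apart, with 4.49% of its summed FPKM from listed enzyme and Reg genes, while the other HET 48 h libraries had 20.43% and 33.9%. Of 12 neuron markers, Dbh was at 0 in all 3 libraries of 7 groups, while Stmn2 (0.341 to 1.36 FPKM) and Syp (0.201 to 3.51) were above 0 in every library. The neuron marker sum was 2.52 to 8.99 FPKM over all libraries. Of 7 intestinal epithelium markers, Apoa4 and Alpi were at 0 in every group, Vil1 reached 2.69 FPKM, and the marker sum was 0 to 2.69 FPKM. Summed FPKM was not equal between libraries, from 217205 to 1400108.

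Insulin is encoded by a pair of genes in the mouse. Without caerulein, Ins2 measured 2580, 2280 and 3990 FPKM in WT and 908, 777 and 1200 FPKM in HET libraries. At 8, 24 and 48 h the WT libraries gave 548, 1210 and 1770, then 322, 521 and 879, then 2260, 631 and 1520 FPKM. The HET libraries gave 550, 1760 and 1150, then 785, 669 and 499, then 1180, 925 and 195 FPKM. Every HET saline value lay below every WT saline value, and after caerulein the genotypes overlapped at each time. Ins2 was the most abundant of the 10 genes in every library, ranking 24 to 98 among all genes.

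Ins1 followed the same course at a lower level. It measured 436, 235 and 516 FPKM in WT saline libraries and 140, 82.8 and 114 in HET saline libraries. The WT values were 60.7, 135 and 175 at 8 h, 52.5, 75.7 and 118 at 24 h, and 289, 74.2 and 166 at 48 h. The HET values were 52.6, 172 and 123 at 8 h, 111, 97.4 and 70.8 at 24 h, and 146, 123 and 31.7 at 48 h. The saline groups again did not overlap, and the later groups did. The coding sequences (GENCODE vM21) are shown because they limit how reads could be assigned. The full sequences are 327 and 333 bases long, of which the first 240 are printed, agree at 302 of 327 aligned bases (92.4%) and share an identical run of 56 bases, so the split of reads between the genes is uncertain. Capitals mark bases that differ between them or stand opposite a gap.
Ins1 coding sequence: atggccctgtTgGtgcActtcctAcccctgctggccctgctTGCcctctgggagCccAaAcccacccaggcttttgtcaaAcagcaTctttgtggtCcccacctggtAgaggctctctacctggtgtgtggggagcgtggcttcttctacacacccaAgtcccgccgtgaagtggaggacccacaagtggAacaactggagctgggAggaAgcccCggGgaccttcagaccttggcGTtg
Ins2 coding sequence: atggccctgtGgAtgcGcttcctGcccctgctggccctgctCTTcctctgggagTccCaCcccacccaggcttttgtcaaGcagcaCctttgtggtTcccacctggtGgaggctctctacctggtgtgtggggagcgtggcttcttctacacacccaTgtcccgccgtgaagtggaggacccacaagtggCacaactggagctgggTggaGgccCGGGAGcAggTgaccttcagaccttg
The Ins2 to Ins1 ratio of FPKM within a library ranged from 5.92 to 10.5 with a median of 7.95.

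Iapp encodes amylin, which beta cells release together with insulin. It measured 156, 84.6 and 191 FPKM in WT saline libraries and 70.8, 27.6 and 41.8 in HET saline libraries, which did not overlap. The WT values were 39.8, 67.1 and 80.5 at 8 h, 30.2, 34.2 and 60.9 at 24 h, and 149, 33.9 and 103 at 48 h. The HET values were 30.1, 95.8 and 65 at 8 h, 55.5, 40.1 and 33.3 at 24 h, and 77.4, 60.3 and 21.9 at 48 h. The genotypes overlapped at each caerulein time.

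Gcg encodes proglucagon, the alpha cell precursor. It measured 191, 92.1 and 366 FPKM in WT saline libraries and 107, 57.3 and 68.5 in HET saline libraries. The WT values were 39.1, 129 and 104 at 8 h, 43.5, 47.6 and 73 at 24 h, and 184, 92.9 and 167 at 48 h. The HET values were 34.7, 143 and 187 at 8 h, 51.7, 73.4 and 43.3 at 24 h, and 126, 143 and 52.6 at 48 h. One HET saline library exceeded the lowest WT saline library, and all other groups overlapped between genotypes too.

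Sst encodes somatostatin, which restrains insulin and glucagon release. Its WT saline values were 37.3, 25.2 and 78.6 FPKM and its HET saline values 27.5, 14.6 and 10.1. The WT values were 9.14, 23.6 and 16.9 at 8 h, 6.76, 5.54 and 9.1 at 24 h, and 25.2, 12.9 and 21.1 at 48 h. The HET values were 8.1, 19.3 and 22.2 at 8 h, 5.8, 6.15 and 5.4 at 24 h, and 10.4, 14.8 and 3.59 at 48 h. At 24 h every library of either genotype was below all 6 saline libraries.

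Ppy encodes pancreatic polypeptide and was the least abundant hormone gene, at 9.21, 4.21 and 14.4 FPKM in WT saline and 3.2, 2.39 and 4.67 in HET saline libraries. The WT values were 1.87, 2.99 and 3.53 at 8 h, 2.62, 1.24 and 3.36 at 24 h, and 5.69, 4.56 and 6.88 at 48 h. The HET values were 2.33, 7.11 and 7.33 at 8 h, 2.06, 3.18 and 3.01 at 24 h, and 4.38, 7.23 and 2.89 at 48 h. All WT 48 h values exceeded all WT 8 h values, while HET 8 h and 48 h overlapped.

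The convertases differed from each other. Pcsk2, which cuts proglucagon to glucagon and takes part in insulin maturation, measured 5.21, 2.83 and 6.85 FPKM in WT saline and 1.07, 1.25 and 1.4 in HET saline libraries. Its WT values were 0.734, 1.83 and 2.79 at 8 h, 0.987, 0.991 and 1.83 at 24 h, and 4.24, 1.55 and 2.69 at 48 h. Its HET values were 0.739, 2.73 and 2.64 at 8 h, 1.07, 1.25 and 0.7 at 24 h, and 2.24, 1.82 and 0.57 at 48 h. The saline groups did not overlap.

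Pcsk1, which cuts proinsulin and is also made in other endocrine and nerve cells, measured 1.81, 1.7 and 2.78 FPKM in WT saline and 2.33, 2.4 and 1.81 in HET saline libraries. Its WT values were 1.51, 2.34 and 2.02 at 8 h, 0.722, 0.852 and 1.5 at 24 h, and 2.05, 0.579 and 1.44 at 48 h. Its HET values were 1.35, 1.84 and 2.31 at 8 h, 0.681, 0.816 and 0.404 at 24 h, and 0.909, 0.566 and 0.249 at 48 h. The saline genotypes overlapped, and the HET 24 h and 48 h libraries lay below all HET saline libraries.

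Scg3 encodes secretogranin III, a granin that helps sort cargo into dense-core granules. It measured 5.27, 3.71 and 7.29 FPKM in WT saline and 1.04, 1.38 and 1.05 in HET saline libraries. Its WT values were 0.859, 1.85 and 2.37 at 8 h, 1.09, 0.987 and 2.02 at 24 h, and 3.38, 1.09 and 2.03 at 48 h. Its HET values were 0.677, 2.7 and 1.83 at 8 h, 0.974, 1.6 and 0.942 at 24 h, and 1.77, 1.09 and 0.282 at 48 h. The WT saline libraries lay above all other WT libraries and above all HET libraries.

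Chga encodes chromogranin A, a general marker of neuroendocrine granules. It measured 39.3, 23.6 and 70.8 FPKM in WT saline and 12.1, 10.8 and 13 in HET saline libraries. Its WT values were 6.47, 13.4 and 17.4 at 8 h, 4.87, 6.96 and 8.14 at 24 h, and 30.5, 8.98 and 20.3 at 48 h. Its HET values were 5.21, 18.8 and 14.7 at 8 h, 5.38, 7.21 and 4.72 at 24 h, and 13.2, 9.48 and 2.04 at 48 h. The WT and HET saline groups did not overlap, and at 24 h all 6 libraries were below all saline libraries.

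**Figure D1:**
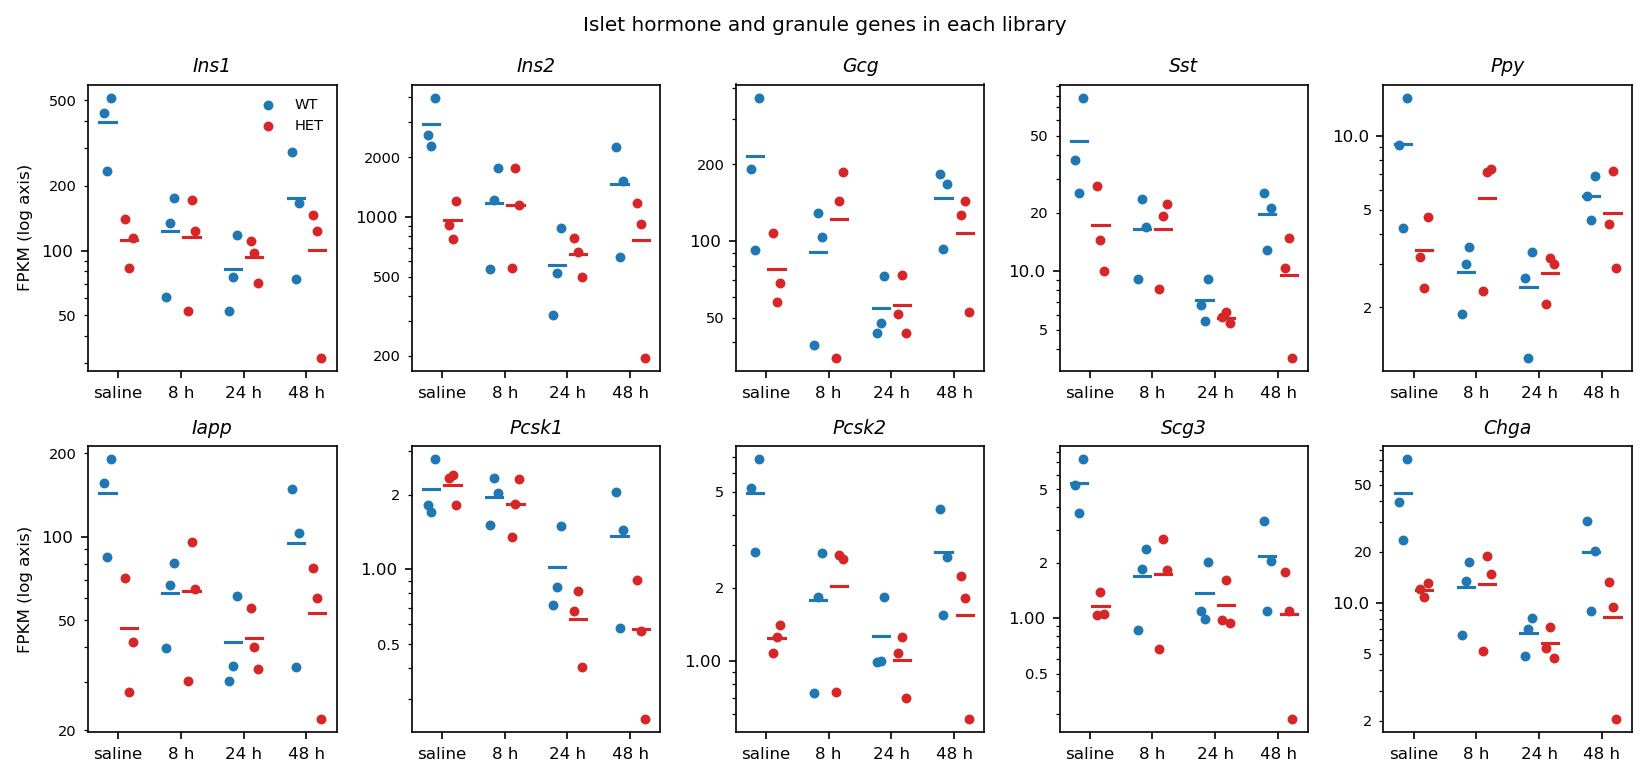
FPKM of each of the 10 genes in all 24 libraries on log axes, with points for animals, lines for group means, WT in blue and HET in red. In saline, WT points lie above HET points for Ins1, Ins2, Iapp, Pcsk2, Scg3 and Chga, and Pcsk1 differs in showing overlap; the lowest HET 48 h point is the same library in every panel.

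In saline animals, 9 of the 10 genes had lower mean levels in HET than in WT pancreas, and for 2 of them the difference passed the test; Pcsk1 was the other gene. Scg3 was called lower, at -1.54 ± 0.33 (SE, n = 3 against 3; limma, adjusted p = 0.02105), and Pcsk2 at -1.35 ± 0.35 (limma, adjusted p = 0.04801), so 2 of 10 genes were called beside 1.21% of all genes tested. Another 7 of the 10 were below 0 without passing, from -1.76 ± 0.59 for Ins1 (limma, adjusted p = 0.1033) to -1.11 ± 0.39 for Ppy (limma, adjusted p = 0.1221). The median of the 10 was -1.45, beside 0 for all 12856 genes tested. In 6 genes all HET values were below all WT values, as in 9.43% of genes tested. Pcsk1 was at 0.05 ± 0.22 (limma, adjusted p = 0.9435).

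Neither call held under the rescaling of libraries to their summed FPKM outside the enzyme and Reg genes (Scg3 at -1.36, limma, adjusted p = 0.1917) or when only the compared groups set the spread, and neither was stable to 1 library. The Scg3 call ended without WT saline library 1 (adjusted p = 0.05603) or library 3 (0.06617), both from limma, and the Pcsk2 call ended without any 1 of the 6 libraries except WT saline library 2. Without WT saline library 3, which had the highest value of all 10 genes in its group, the median of the 10 was -1.20. Markers of some other cell types also differed in level between the saline groups, in either direction. For 7 Schwann cell markers the sum was 7.1 to 9.2 FPKM in WT and 4.5 to 6.8 in HET, with 0 of 1 tested called. Duct and neuron marker sums overlapped. The sum of 12 adipocyte markers was 73.9 to 180 FPKM in WT and 364 to 841 in HET saline libraries, and 2 of the 12 were called higher, beside 148 of 12856 genes tested. The sum of 11 macrophage markers was 91.7 to 229 against 296 to 627 FPKM, again with 2 called higher, and that of 8 B cell markers was 5.9 to 113 against 84.7 to 300, ranges that overlapped, with 0 of 7 tested called. With the mean log2(FPKM + 1) of the 12 adipocyte markers as a covariate, the median of the 10 was -0.95 and neither call remained. Scg3 was then at -1.15 (limma, adjusted p = 0.2833). With this covariate most calls over all genes ended too, and the adipocyte sums did not overlap between the saline genotypes. The covariate therefore cannot separate adipocyte content from genotype in this comparison. The parts of macrophage, B cell and Schwann cell RNA in the result were not tested.

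At the 3 caerulein times no gene of the 10 passed the test between genotypes. At 8 h 0 of 10 genes were called (0 at an unadjusted p under 0.05; 0.0467% of all genes were called lower and 0.171% higher), with a median of -0.02 and a range from -0.12 for Ins1 to 0.71 for Ppy. At 24 h 0 of 10 were called and 0 had an unadjusted p under 0.05, beside 3% of all genes called lower and 3.5% higher, and the median was -0.04. At 48 h all 10 were below 0 with a median of -0.70, 0 were called beside 6.37% of all genes called lower and 5.85% higher, and 3 had an unadjusted p under 0.05. These were Chga at -1.30 ± 0.55 (limma, adjusted p = 0.1333), Sst at -1.09 ± 0.49 (0.1545) and Pcsk1 at -0.55 ± 0.22 (0.116). None of the 10 had separate genotype ranges at 8 h (6.19% of all genes lower and 8.75% higher), at 24 h (11.7% and 13%) or at 48 h (16.3% and 17.9%).

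The 48 h difference leaned on single libraries. Without HET 48 h library 3, the lowest of its group for all 10 genes, the median was -0.29, and without WT 48 h library 2, the lowest of its group for all 10, it was -1.13 and Pcsk1 and Chga were called (limma, adjusted p = 0.01504 and 0.04503). At that time 23 of 26 digestive enzyme genes tested were called lower and 6 of 11 macrophage markers higher in HET. Averaged over the 4 conditions, all 10 genes were below 0 and Scg3 was called, at -0.57 ± 0.16 (limma, adjusted p = 0.0196), beside 8.4% of all genes called lower. Leaving out 1 library at a time called between 1 and 5 of the 10 in that mean difference, with most calls without WT 48 h library 2.

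**Figure D2:**
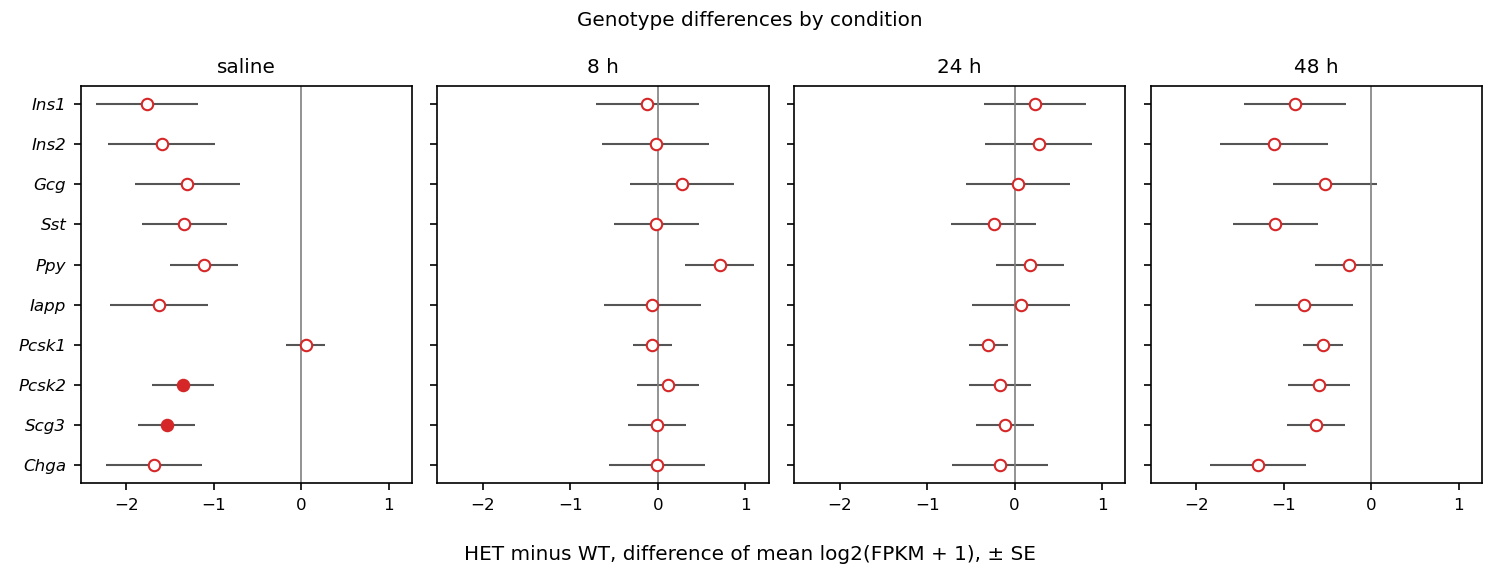
HET minus WT difference of mean log2(FPKM + 1) with its standard error for each gene, in saline and at 8, 24 and 48 h; filled points are past an adjusted p of 0.05. Scg3 and Pcsk2 in saline are the filled points, 9 of 10 saline points lie below 0, and the 8 h and 24 h points lie between -0.30 and 0.71.

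In WT pancreas all 10 genes fell by 24 h after the first caerulein injection. The guide was the same for these libraries except WT saline library 3, for which it is not known; without that library the median was -1.40. The calls were 10 of 10, beside 18.7% of all genes called lower, and all 10 had every 24 h value below every saline value, as did 21.3% of genes tested. Chga had the lowest value, at -2.46 ± 0.55 (limma, adjusted p = 0.001718). Ins2 was at -2.44 ± 0.62 (0.004031), Sst at -2.43 ± 0.49 (0.0007067) and Ins1 at -2.26 ± 0.59 (0.005039), with 3 animals per group. Gcg, Iapp, Ppy, Scg3 and Pcsk2 were between -1.79 and -1.35, and Pcsk1 was nearest 0, at -0.62 ± 0.22 (limma, adjusted p = 0.03631). The median was -1.77, beside 0.05 for all genes tested.

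The size of that fall depended on the scaling. Under the rescaling outside enzyme and Reg genes, the median of all genes tested shifted from 0.05 to 0.71 and that of the 10 from -1.77 to -0.81, so that relative to all genes the 10 were at -1.82 before and -1.52 after. All 10 stayed below 0, and Sst and Chga remained called. Leaving out 1 library at a time called between 7 and 10; the Gcg and Iapp calls each ended without WT saline library 1 or 3 or WT 24 h library 1 or 2, and the Pcsk1 call ended without WT saline library 3 or WT 24 h library 1 or 2. Macrophage markers moved with time in WT, with 10 of 11 called higher at 24 h and sums of 623 to 1068 FPKM, against 91.7 to 229 in saline. Adipocyte sums were 160 to 599 FPKM with 4 of 12 markers called higher and 1 lower. Of all 12854 genes tested, 2630 were called higher in this comparison. With the mean log2(FPKM + 1) of the adipocyte markers as a covariate, 5 of the 10 islet genes were called, with a median of -1.41.

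At 8 h in WT, 6 of the 10 genes were called lower than saline (Ins1, Sst, Ppy, Pcsk2, Scg3 and Chga), beside 22.8% of all genes, and 8 had separate ranges, beside 25.6%. Their differences ran from -1.72 ± 0.59 for Ins1 (limma, adjusted p = 0.01897) to -1.11 ± 0.35 for Pcsk2 (0.01273). Ins2 was at -1.44 (limma, adjusted p = 0.0579), Gcg at -1.19 (0.1049), Iapp at -1.17 (0.08997) and Pcsk1 at -0.06 (0.8537). Only Scg3 was called without WT saline library 3, and Ppy and Scg3 were called without WT 8 h library 1. At 48 h Scg3 alone was called against saline, at -1.05 ± 0.33 (limma, adjusted p = 0.02526), beside 13.5% of all genes called lower, and Ins2 and Scg3 had separate ranges, beside 20.1%. All 10 were below 0 with a median of -0.90. That call ended without WT saline library 1 or 3 or WT 48 h library 2 or 3, and 3 genes were called without WT 48 h library 1. Between 8 h and 48 h, a comparison within 1 guide, 0 of 10 were called, beside 22.5% of all genes called higher and 27.4% lower; 9 were above 0 with a median of 0.43. Ppy alone had an unadjusted p under 0.05 and separate ranges (27.1% of all genes, higher), at 0.83 ± 0.39 (limma, adjusted p = 0.08381). The order of group means in WT was therefore saline highest and 24 h lowest for all 10 genes, with 8 h and 48 h between them and not distinguished from each other.

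In HET pancreas, against saline, 0 of 10 genes were called at 8 h (0 at an unadjusted p under 0.05; 24.5% of all genes called lower and 30.7% higher), with a median of 0.20. At 24 h Sst and Pcsk1 were called lower, 2 of 10 beside 19.8% of all genes, and these and Chga had separate ranges, beside 21.6%. Sst was at -1.33 ± 0.49 (limma, adjusted p = 0.03383) and Pcsk1 at -0.96 ± 0.22 (limma, adjusted p = 0.001808), while Ins2 was at -0.56 ± 0.62 and Scg3 at 0.00 ± 0.33. The Sst call ended without any 1 of the 6 libraries except HET saline library 3, and under the rescaling, where Sst was at -0.30 (limma, adjusted p = 0.6028). At 48 h Pcsk1 alone was called, at -1.03 ± 0.22 (limma, adjusted p = 0.001088), beside 20% of all genes called lower, and it alone had separate ranges, beside 22.9%. It was also the gene called between 8 h and 48 h, at -0.85 ± 0.22 (limma, adjusted p = 0.003476), beside 28.6% of all genes, again with separate ranges, beside 35.3%.

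The 3 Pcsk1 calls in HET held with each library left out, but not under that rescaling, where they were at -0.38, -0.47 and -0.39 while the medians of all genes moved to 0.84, 0.85 and 0.66. There the medians of the 10 against HET saline changed sign, from -0.35 to 0.58 at 24 h and from -0.27 to 0.58 at 48 h. Relative to the median of all genes they were at -0.41 and -0.36 before, and -0.26 and -0.28 after. Adipocyte sums moved the opposite way to those in WT, from 364 to 841 FPKM in HET saline to 64.6 to 196 at 24 h, with 7 of 12 markers called lower.

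**Figure D3:**
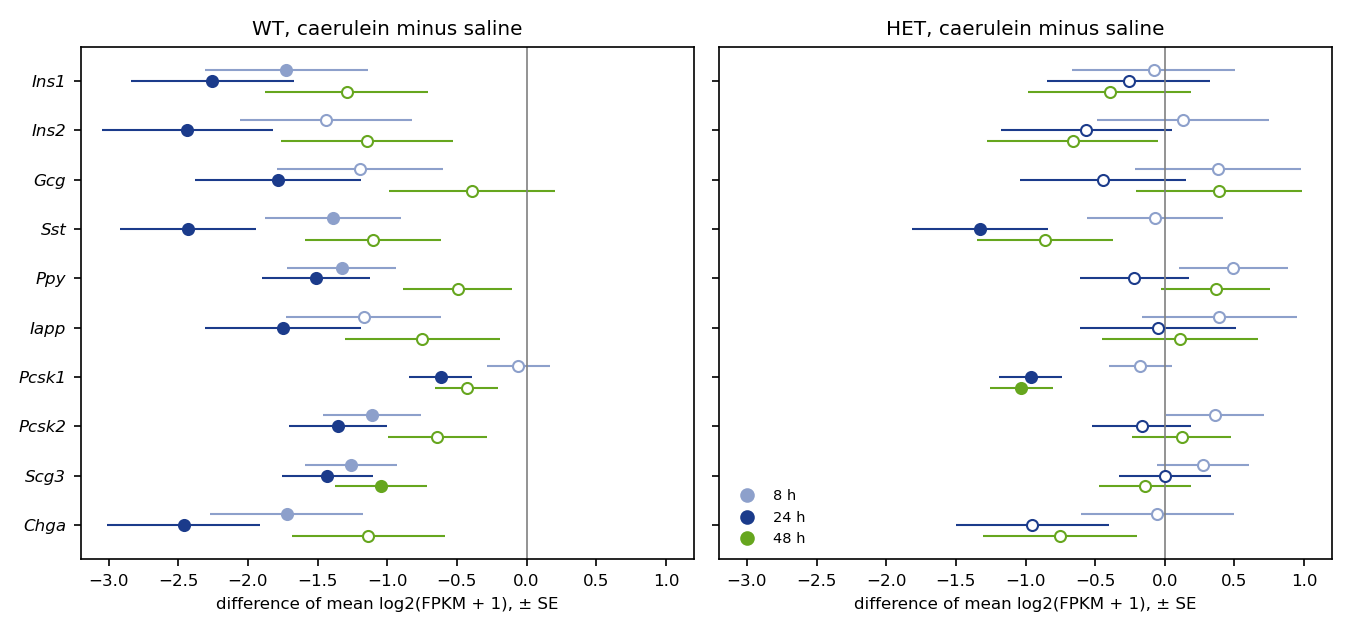
Difference of mean log2(FPKM + 1) from saline at 8, 24 and 48 h with its standard error, for WT (left) and HET (right); filled points are past an adjusted p of 0.05 and open points are not. All 10 WT 24 h points are filled and below 0, while in HET the filled points are Sst at 24 h and Pcsk1 at 24 and 48 h.

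Whether the time course itself differed between genotypes was tested as an interaction. For 24 h against saline, 9 of 10 genes were above 0, meaning a value less far below saline in HET than in WT, with a median of 1.39 beside 0.02 for all genes. None was called, beside 1.07% of all genes called higher and 1.24% lower, and 6 had an unadjusted p under 0.05 by limma. Scg3 came closest at 1.43 ± 0.47 (limma, adjusted p = 0.1044), and Ins1 was at 1.997 ± 0.83 (0.2112). Pcsk1 was the exception, at -0.35 ± 0.32 (limma, adjusted p = 0.6151). For 48 h against 8 h all 10 were below 0 with a median of -0.77, 0 were called beside 0.568% of all genes called lower and 0.156% higher, and 0 had an unadjusted p under 0.05. The genotype and time differences share the same saline libraries, so a high WT saline group enters both.

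Within a library most hormone genes kept closer proportions to Ins2 than their levels did. Ppy kept to Ins2 least closely. Its log2 ratio to Ins2 (FPKM + 1) ran from -8.77 to -5.65, while its level ran from 1.24 to 14.4 FPKM. Ins2 spanned 195 to 3990 FPKM over the 24 libraries, whereas the Ins2 to Iapp ratio spanned 8.9 to 28.7 and the Ins2 to Gcg ratio 3.71 to 24.8. The Gcg to Sst ratio was 5.12, 3.65 and 4.66 in WT saline and 12.1, 9.66 and 14.7 in HET 48 h libraries, with no overlap, and WT 48 h libraries lay between them at 7.3, 7.2 and 7.91. The Pcsk2 to Pcsk1 ratio was 2.88, 1.66 and 2.46 in WT saline and 0.459, 0.521 and 0.774 in HET saline libraries. At 8 h WT libraries, at 0.486, 0.782 and 1.38, and HET libraries, at 0.547, 1.48 and 1.14, overlapped the HET saline range. At 24 h the WT libraries gave 1.37, 1.16 and 1.22 and the HET libraries 1.57, 1.53 and 1.73, and at 48 h the ratios were 2.07, 2.68 and 1.87 against 2.46, 3.22 and 2.29. These pairs were chosen after their values were seen and are given without a test. Neither ratio is affected by a scale factor applied to a whole library.

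**Figure D4:**
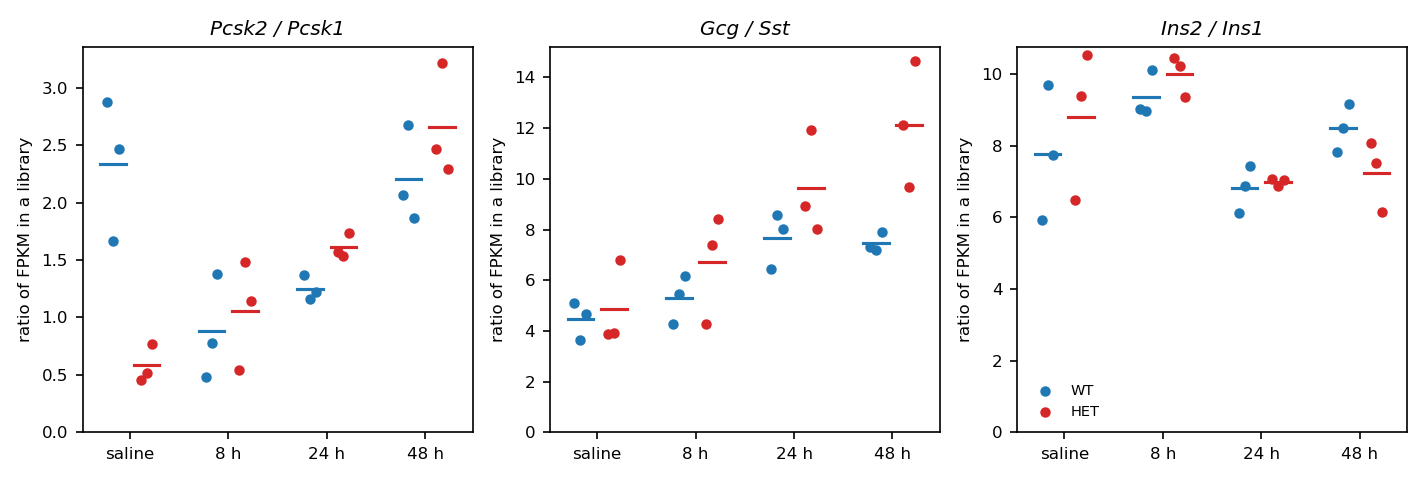
Ratio of FPKM within each library for Pcsk2 to Pcsk1, Gcg to Sst and Ins2 to Ins1, by condition, with points for animals and lines for group means, WT in blue and HET in red. Pcsk2 to Pcsk1 has its lowest mean in HET saline (0.459 to 0.774) against WT saline (1.66 to 2.88), Gcg to Sst has its highest mean at HET 48 h, and Ins2 to Ins1 stays between 5.92 and 10.5.

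The 10 genes also varied together from animal to animal. Over the 24 libraries, which share group differences and library scale, the 45 pairs had Pearson r from 0.36 (Ppy with Pcsk1) to 0.97 (Ins1 with Ins2), with a median of 0.86. After the group means were subtracted the median was 0.83. Library scale stays in these deviations, and its part was not tested. With the mean deviation of the 10, r was 0.83 for Reg1, 0.65 for the digestive enzyme gene Clps and -0.22 for the macrophage marker Lyz2. All 10 genes were above their group mean in WT saline library 3, WT 8 h libraries 2 and 3, HET 8 h libraries 2 and 3, WT 24 h library 3, WT 48 h libraries 1 and 3 and HET 48 h library 2. None was above it in WT saline library 2, WT 8 h library 1, HET 8 h library 1, WT 48 h library 2 and HET 48 h library 3. Animals of 1 group thus differed in the whole set at once: the mean of the 10 log2 values ran from 3.53 to 4.89 across HET 8 h libraries and from 3.0 to 4.46 across HET 48 h libraries.

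Among 12849 genes tested, those most like the mean z score of the 10 were Scg2 (r = 0.97), Pcsk1n (0.93), Scg5 (0.92), Cltrn (0.89), Slc30a8 (0.89), Chgb (0.83), Resp18 (0.83) and Syt13 (0.82), over 24 libraries and without a test. Scg2 is secretogranin II, Pcsk1n an inhibitor of Pcsk1, Scg5 a chaperone of Pcsk2 and Slc30a8 the zinc transporter of insulin granules. The same 8 genes led after the rescaling. In saline Scg2 was at -1.61 ± 0.47 in HET against WT (limma, adjusted p = 0.07554) and Slc30a8 at -1.05 ± 0.31 (0.07551), so neither was called.

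**Figure D5:**
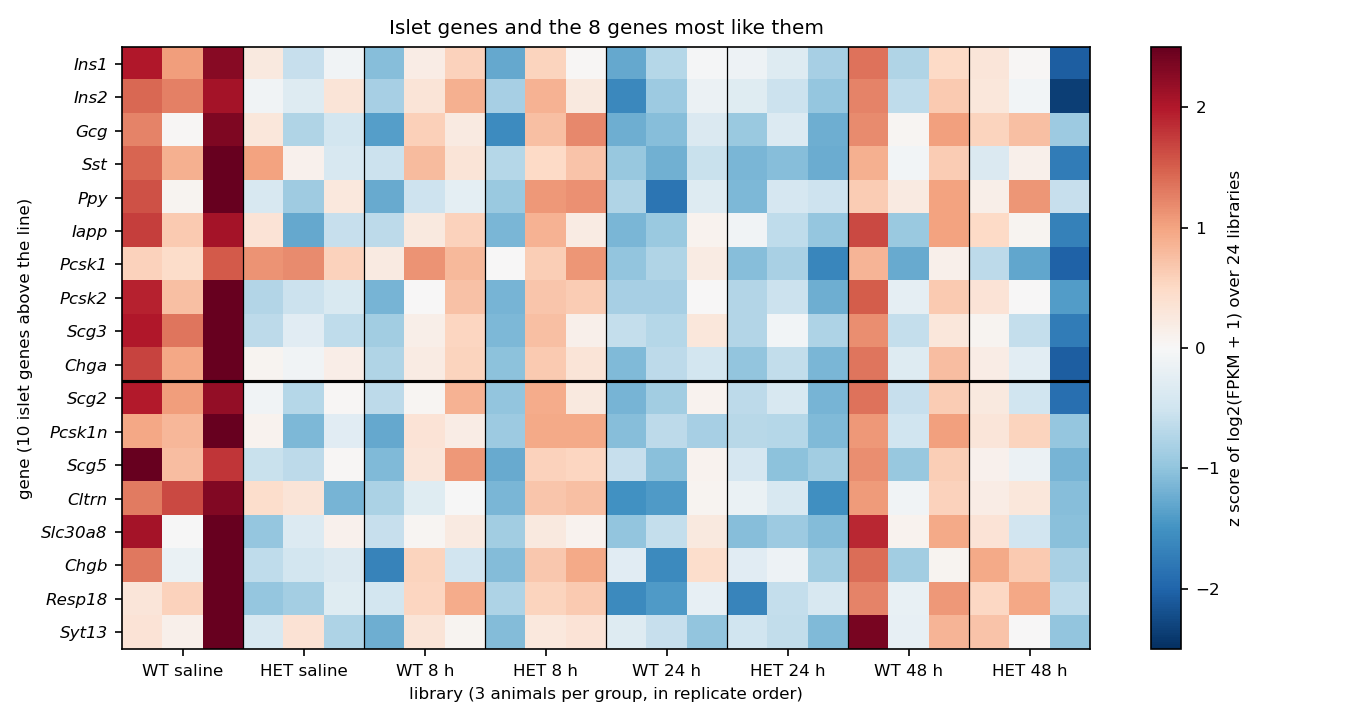
Z scores of log2(FPKM + 1) over 24 libraries for the 10 islet genes (above the line) and the 8 genes most like them, with 3 libraries per group. WT saline library 3 is the reddest column, HET 48 h library 3 is among the bluest, and columns tend to be red or blue down the whole set, with Pcsk1 in HET saline as an exception.

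Promoters are shown for 4 genes: Ins1, Gcg and Sst, hormone genes of beta, alpha and delta cells, and the general granule gene Chga. They are the 250 bases before the start site from RefSeq (GRCm38.p6, a later build than that of the expression values), which had entries for 9 of the 10 genes. Capitals mark TAAT, a homeodomain core, in Ins1, Gcg and Sst, GCCATCTG, an E box of insulin genes, in Ins1, TATAAA in Gcg, TGACGTCA, the cAMP response element, in Sst, and its variant TGACGTAA in Chga. Both strands were searched.
Ins1 promoter, chr19:52264047-52264296, plus strand: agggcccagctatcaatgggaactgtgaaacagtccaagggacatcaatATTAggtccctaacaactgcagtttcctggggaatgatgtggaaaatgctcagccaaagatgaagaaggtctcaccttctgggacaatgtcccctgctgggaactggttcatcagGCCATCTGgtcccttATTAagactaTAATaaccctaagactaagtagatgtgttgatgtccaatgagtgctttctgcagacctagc
Gcg promoter, chr2:62483654-62483903, minus strand: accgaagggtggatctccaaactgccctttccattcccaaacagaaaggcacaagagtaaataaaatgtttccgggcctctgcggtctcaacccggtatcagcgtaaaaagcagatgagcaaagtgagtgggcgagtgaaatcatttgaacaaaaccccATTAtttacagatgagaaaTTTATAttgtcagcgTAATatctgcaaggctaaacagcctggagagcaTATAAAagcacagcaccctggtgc
Sst promoter, chr16:23890845-23891094, minus strand: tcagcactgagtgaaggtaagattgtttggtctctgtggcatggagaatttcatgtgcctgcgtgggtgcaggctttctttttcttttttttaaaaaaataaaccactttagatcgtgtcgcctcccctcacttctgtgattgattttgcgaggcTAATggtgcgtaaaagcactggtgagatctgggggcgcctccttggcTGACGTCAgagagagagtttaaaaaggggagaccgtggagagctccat
Chga promoter, chr12:102554691-102554940, plus strand: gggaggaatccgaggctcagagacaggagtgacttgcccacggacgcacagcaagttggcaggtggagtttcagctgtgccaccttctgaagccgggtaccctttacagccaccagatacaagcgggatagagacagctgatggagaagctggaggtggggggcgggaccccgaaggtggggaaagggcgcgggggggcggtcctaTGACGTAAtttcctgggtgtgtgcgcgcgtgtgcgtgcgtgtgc
TAAT was found in 7 of 9 promoters, beside 54.9% of 32851 promoters of the same length. GCCATCTG occurred in 1 of 9, 86 bases before the Ins1 start site (1.11% of all promoters), and TGACGTCA in 2 of 9, Sst at 48 and Pcsk1 at 78 bases (1.55%). TGACGTAA occurred in Chga at 44 bases (0.447%), where it shares bases with a TAAT, and TATAAA in 2 of 9, Gcg and Ppy (12.4%). CAAGGNCA, the type of site that Nr5a2 binds, was in 0 of 9 (5.53% of all). These are letter matches in a short window and no binding was measured.

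Other islet genes were read from 3 lists. In saline, 0 of 16 tested granule and hormone processing genes were called between genotypes, with a median of -0.53, as were 1 of 8 islet transcription factors and 2 of 13 glucose sensing and exocytosis genes, all 3 lower in HET, beside 1.21% of all genes called lower. St18, a zinc finger factor, was at 0.154 against 1.76 FPKM, a difference of -1.27 ± 0.19 (limma, adjusted p = 0.001881). Its median over all libraries was 0.33 FPKM, with 3 libraries at 0. It thus passed the filter of 1 FPKM in 3 libraries through libraries where it was high, WT saline among them. The St18 call is therefore not independent of that filter. Glp1r, the receptor for the incretin GLP-1, was at 2.79 against 7.44 FPKM (-1.19 ± 0.25, limma, adjusted p = 0.01947). Rab27a, a small GTPase of granule exocytosis, was at -0.62 ± 0.15 (limma, adjusted p = 0.0355). Under the rescaling outside enzyme and Reg genes, the genes called lower in this comparison went from 155 to 5 over all genes. Whether these 3 list genes stayed called there was not examined.

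At 24 h in WT 10 of 16 granule genes were called lower and 1 higher than saline, with a median of -1.11, beside 18.7% of all genes called lower. Digestive enzyme genes moved with them, with 14 of 17 tested called lower and a median of -2.98, and their part in these list values was not tested. Nucb2, the nesfatin precursor, went from 334 to 37.3 FPKM (-3.14 ± 0.23, limma, adjusted p = 1.798e-08) and Ero1lb, an oxidase of protein folding, from 178 to 19.1 (-3.16 ± 0.35, 1.837e-06). Ttr was at -2.71 ± 0.40 (limma, adjusted p = 3.564e-05) and Ptprn2, a granule membrane protein, at -1.56 ± 0.25 (7.89e-05). With the mean z score of the 10 genes, Nucb2, Ero1lb, Ttr and Ptprn2 had r of 0.57, 0.66, 0.67 and 0.68. After the rescaling these were 0.24, 0.38, 0.41 and 0.49, beside 0.97 for Scg2 and 0.31 for the digestive enzyme gene Clps. In the exocytosis list 6 of 13 were called lower, led by Rab3a at -1.92 ± 0.23 (limma, adjusted p = 3.958e-06) and Glp1r at -1.64 ± 0.25 (5.31e-05). Of 8 transcription factors 4 were called lower and 1 higher; Pdx1, which drives insulin transcription and is also present in acinar cells, was at -0.67 ± 0.23 (limma, adjusted p = 0.02386) and Foxa2 at -1.15 ± 0.23 (0.0005985).

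In HET at 24 h Nucb2, Ero1lb and Rab3a were also called lower than saline: Nucb2 at -3.36 ± 0.23 (limma, adjusted p = 4.31e-09), Ero1lb at -4.66 ± 0.35 (1.177e-08) and Rab3a at -2.26 ± 0.23 (3.773e-07), where hormone genes other than Sst were not called. Of the granule list 4 of 16 were called lower and 1 higher, with a median of -0.20, a share near the 19.8% of all genes called lower. In the same comparison 16 of 18 tested digestive enzyme genes were called lower, with a median of -3.61. The interaction for 24 h against saline was called for St18 at 1.16 ± 0.27 (limma, adjusted p = 0.03018) and for the convertase Furin, which is active in most cell types, at 1.47 ± 0.31 (0.01591). The St18 call again draws on the high WT saline libraries by which that gene passed the filter. At 8 h, across the change of library guide, most called list genes were lower than saline in WT: 9 of 16 granule genes (1 higher), 5 of 8 transcription factors (2 higher) and 8 of 13 exocytosis genes (0 higher), beside 22.8% of all genes called lower. Rab3a was at -2.74 ± 0.23 (limma, adjusted p = 7.539e-09), Nucb2 at -2.32 ± 0.23 (5.87e-08) and Foxa2 at -1.73 ± 0.23 (2.832e-06). In HET 4 of 16, 4 of 8 and 5 of 13 were called lower and 1, 3 and 2 higher, beside 24.5% of all genes called lower. A pair of the list genes called higher in both genotypes were Insm1 and Furin. Insm1, an endocrine zinc finger factor, went from 0.267 to 3.25 FPKM in WT (1.61 ± 0.30, limma, adjusted p = 0.0001662) and from 0.169 to 8.87 in HET (2.998 ± 0.30, 8.2e-08), and Furin went from 19.5 to 119.8 FPKM in WT (2.56 ± 0.22, 8.996e-09) and from 12.87 to 165 in HET (3.54 ± 0.22, 9.14e-11). By 48 h Insm1 was back at 0.173 FPKM in WT and 0.187 in HET. Its median over all libraries was 0.2055 FPKM. It thus passed the filter of 1 FPKM in 3 libraries through libraries where it was high, those of 8 h among them. The 8 h calls of Insm1 are therefore not independent of that filter.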

How the data were processed

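Polyadenylated RNA was sequenced from 24 pancreases, 3 per group. The deposited table holds FPKM per Ensembl gene, made by the authors with CASAVA 1.8, Bowtie, Cufflinks 2.0.2 and Cuffnorm on mouse build mm9, per the submitters' processing notes; which step each tool did is not stated there. The unit was taken from Cuffnorm. RNA integrity numbers were 6.6 to 9.2, and libraries had 10 PCR cycles under the earlier guide and 8 under the later, per the labels' protocols.

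Of 36806 genes, 12784 were at 0 in every library and 31840 matched a symbol. Where all 3 libraries of a group were 0 and all 3 of another were at least 100 FPKM, the zeros were treated as missing (22 genes). Replicates were numbered in accession order. Genes reaching 1 FPKM in 3 or more libraries were tested on log2(FPKM + 1), pseudocount 1, with limma 3.58.1 in R 4.3.3 (trend, robust; 1 mean per group; Benjamini-Hochberg over all genes tested; two-sided), and all 10 islet genes passed. The fit was tested on simulated data. Tables and plots used Python 3.11.15, pandas 2.3.3, numpy 2.4.6 and matplotlib 3.10.9. Named genes were the 10, up to 4 per islet list with the smallest adjusted p per comparison described, the 8 genes most like the 10, and Nr5a2; 1 list gene that the rule names is not reported here. The 10 genes and the lists were chosen with earlier results of these data known. Alternatives were another pseudocount, no filter, zeros kept, another scaling, an adipocyte covariate, the spread of the compared groups alone, and each library left out.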

Additional observations from a re-analysis of the deposited data

How the results depend on the processing

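With a pseudocount of 0.1 instead of 1, 1 of the 10 genes was called for HET minus WT in saline and 0 for WT 48 h minus saline. Without a filter on low values, 1 was called for the saline genotype difference and 1 for HET 24 h minus saline. Rescaling each library to its summed FPKM outside the enzyme and Reg genes called 0 for the saline genotype difference, 0 for the mean of 4 conditions, 2 for WT 24 h minus saline, 0 for WT 48 h minus saline, 1 higher for WT 48 h minus 8 h, 0 for HET 24 h minus saline, 2 higher for HET 48 h minus saline and 0 for HET 48 h minus 8 h. Of all genes tested, that rescaling called 8250 of 12857 higher for HET 48 h minus saline and 4998 of 12860 higher for WT 48 h minus 8 h. The few islet genes called higher there are thus no rise particular to them. It also moved the share of called genes that were higher from 52.26% to 94% for WT 24 h minus saline, from 54.66% to 92.72% for HET 24 h minus saline and from 47.9% to 90.46% for HET minus WT at 48 h. Over all genes, it moved the calls for the saline genotype difference from 155 lower and 148 higher to 5 and 6, and those for WT 24 h minus saline from 2403 and 2630 to 470 and 7368; the adipocyte covariate left 4 and 2 for the saline genotype difference. With the adipocyte covariate, 0 of the 10 were called for the saline genotype difference, 1 for HET minus WT at 48 h, 5 for WT 24 h minus saline and 1 for HET 24 h minus saline. When only the compared groups set the spread, 0 were called for the saline genotype difference, 0 for WT 48 h minus saline and 1 higher for WT 48 h minus 8 h. The causes of these changes were not tested. Keeping zeros as values moved none of these counts by over 1.5 times.

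Leaving out 1 library at a time gave 0 to 2 calls for the saline genotype difference, 0 to 2 at 48 h, 1 to 5 for the mean, 1 to 7 for WT 8 h minus saline, 7 to 10 for WT 24 h, 0 to 3 for WT 48 h, 0 to 1 for WT 48 h minus 8 h and 1 to 2 for HET 24 h. The saline genotype difference of Pcsk1 ran from -0.0406 to 0.2021 and was below 0 without WT saline library 1 or 2 or HET saline library 2. No paired analysis was made, because each library came from a different animal and the labels name no pairing of animals between groups. With 3 animals per group and no read counts, changes in the genes near 1 FPKM are the least precise.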
